A study of Homo sapiens with 5 samples.

Results

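SMAD2 binding was examined at 9 loci whose genes restrain cell division: the BTG and TOB genes BTG1, BTG2, TOB1 and TOB2, the stress genes GADD45A, GADD45B and GADD45G, the cyclin gene CCNG2 and the MAX-partner gene MXD4. The members were taken by position on hg19, as every listed SMAD2 summit within 20 kb of the gene's span. The span was given in whole kb, and how it was rounded is not stated. The rule uses positions and no measured value, though the genes were proposed with earlier results of these data known. A summit is the single base where a stretch of ChIP enrichment was highest. The 9 windows, of 43 to 56 kb each, held 281 of the 233945 summits of the 4 libraries. Chaining summits at most 200 bp apart gave 138 regions at the loci, of 115321 in the genome. Around the limit of the windows, between 15 and 20 kb from the spans the lists held 7 and 8 summits with activin and 9 and 10 with palbociclib and activin, and between 20 and 25 kb they held 4 and 2, and 2 and 5.

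The cells were T47D, an established human luminal breast cancer line that expresses the estrogen receptor. Chromatin was precipitated with an antibody against SMAD2 from cells given activin A at 50 ng/ml for 1.5 h (2 libraries), and from cells given palbociclib at 1 µM for 24 h and activin A at 50 ng/ml for 1.5 h (2 libraries). An input library of untreated cells served the authors' peak calling and has no list of its own here. Both groups received activin, so nothing here contrasts activin with its absence. The lists held 51535 and 54243 summits with activin and 62960 and 65207 with palbociclib and activin, on chromosomes 1 to 22 and X. Read depth is not in the lists, and it affects how many summits are called and how high they score. The labels do not say whether the replicates were separate cultures, and p-values below measure only the spread between these libraries, part of which may be technical.

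Activin binds receptors that phosphorylate SMAD2, which then enters the nucleus with SMAD4 and reaches DNA together with other transcription factors. In epithelial cells this branch of the TGF-β family is known for cytostatic gene responses. Palbociclib inhibits CDK4 and CDK6, the kinases that release cells into S phase. BTG and TOB proteins slow proliferation and bind the CCR4-NOT deadenylase, which shortens mRNA tails. GADD45 proteins are small acidic proteins induced by stress that act on the cell cycle and on the MAP3K4 kinase. Cyclin G2, the product of CCNG2, is an unconventional cyclin that is abundant in arrested cells. MXD4 pairs with MAX and opposes MYC at E-boxes.

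Sequences just before the gene starts are shown for BTG1, GADD45B and GADD45G, which carried strong summits at their 5′ edge, and for CCNG2 and MXD4, which did not. Each is the 250 bases before the RefSeq start, 5′ to 3′ on the gene's strand, on GRCh38.p14. That build differs from the files' build, so these positions were not compared with the summits. BTG1 is chr12:92145847-92146096 (minus strand), GADD45B chr19:2475877-2476126 (plus), GADD45G chr9:89604762-89605011 (plus), CCNG2 chr4:77156957-77157206 (plus) and MXD4 chr4:2262110-2262359 (minus). Capitals mark the SMAD-binding element CAGAC (or GTCTG), the GC-rich SMAD motif GGCGC (or GCGCC) and the E-box CACGTG.
BTG1: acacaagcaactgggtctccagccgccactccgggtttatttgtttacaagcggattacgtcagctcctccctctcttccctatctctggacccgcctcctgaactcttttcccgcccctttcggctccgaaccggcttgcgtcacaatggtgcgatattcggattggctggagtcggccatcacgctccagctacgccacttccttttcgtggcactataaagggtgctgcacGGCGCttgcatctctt
GADD45B: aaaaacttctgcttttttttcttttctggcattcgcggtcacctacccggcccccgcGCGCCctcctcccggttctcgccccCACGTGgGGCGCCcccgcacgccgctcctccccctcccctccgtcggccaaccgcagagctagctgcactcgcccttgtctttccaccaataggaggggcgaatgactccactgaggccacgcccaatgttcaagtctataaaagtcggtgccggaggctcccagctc
GADD45G: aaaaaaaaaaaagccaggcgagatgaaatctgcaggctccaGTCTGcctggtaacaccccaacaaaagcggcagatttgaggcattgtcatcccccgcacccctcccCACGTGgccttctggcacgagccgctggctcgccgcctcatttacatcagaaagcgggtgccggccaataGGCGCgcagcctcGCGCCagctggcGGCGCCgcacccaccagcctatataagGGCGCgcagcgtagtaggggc
CCNG2: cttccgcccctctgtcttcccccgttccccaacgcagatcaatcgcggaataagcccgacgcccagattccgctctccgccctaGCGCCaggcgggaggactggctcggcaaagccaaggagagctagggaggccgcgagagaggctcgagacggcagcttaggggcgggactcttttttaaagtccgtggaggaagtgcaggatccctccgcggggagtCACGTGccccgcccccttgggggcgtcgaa
MXD4: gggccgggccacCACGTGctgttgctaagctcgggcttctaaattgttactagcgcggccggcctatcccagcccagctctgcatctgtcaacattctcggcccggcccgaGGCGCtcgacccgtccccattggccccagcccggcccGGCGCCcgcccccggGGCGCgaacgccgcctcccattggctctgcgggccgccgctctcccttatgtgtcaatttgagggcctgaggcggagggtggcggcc

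The GC-rich motif was common before these genes and the CAGAC element was rare. Entries were found for 8 of the 9 genes, with 2 starts for TOB1 and none for GADD45A, so 9 sequences were searched on both strands. GGCGC was present in 8 of 9 sequences, beside 44.5% of all 35116 promoters in the table. The sequence without it lay before the outer start of TOB1 and had a GC content of 38.4%. The other 8 ranged from 56.4% in BTG1 to 80.4% before the inner start of TOB1, and the median of all promoters was 58.0%. CAGAC was present only in GADD45G, that is 1 of 9, beside 38.0% of all promoters. The E-box stood in 4 of 9 (GADD45B, GADD45G, CCNG2 and MXD4), beside 6.34% of all promoters. BTG1 held a match to the FOXA motif TGTTTAC, which 2.98% of promoters hold. The outer TOB1 sequence held CATGT, part of the p53 consensus (23.2% of promoters). The AP-1 motif TGANTCA (6.57% of promoters) and the GATA motif AGATAA (9.17%) were in 0 of the 9. GGCGCC counts as 2 overlapping matches of the GC-rich motif, and a match of letters is not a bound site.

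Each of the 9 loci had a region found in all 4 libraries, as were 20.4% of the regions of the genome. At 6 of the loci the strongest such region lay within 1 kb of the gene's 5′ edge. Neither count was made for other genes, and the 1-kb limit was chosen after the summits were seen. The strongest region was the one whose lowest rank over the 4 lists was best. Distances are from the edge as given in whole kb, so the true start may lie up to about 1 kb away. Differences between loci of less than 1 kb are therefore not read from them. At these 6 loci and TOB1 the summits of the 4 libraries fell within 10 to 100 bp of each other. The median extent was 28 bp over the 9 strongest regions and 98.5 bp over the 32 regions at the loci found in all libraries, beside 76 bp over the 23476 such regions of the genome, which are of any strength. The score of a summit was read as the −log10 q value of the authors' peak caller, which the labels do not state. It belongs to its own list, so scores and ranks are given list by list. No change between lists is read from them.

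**Figure D1:**
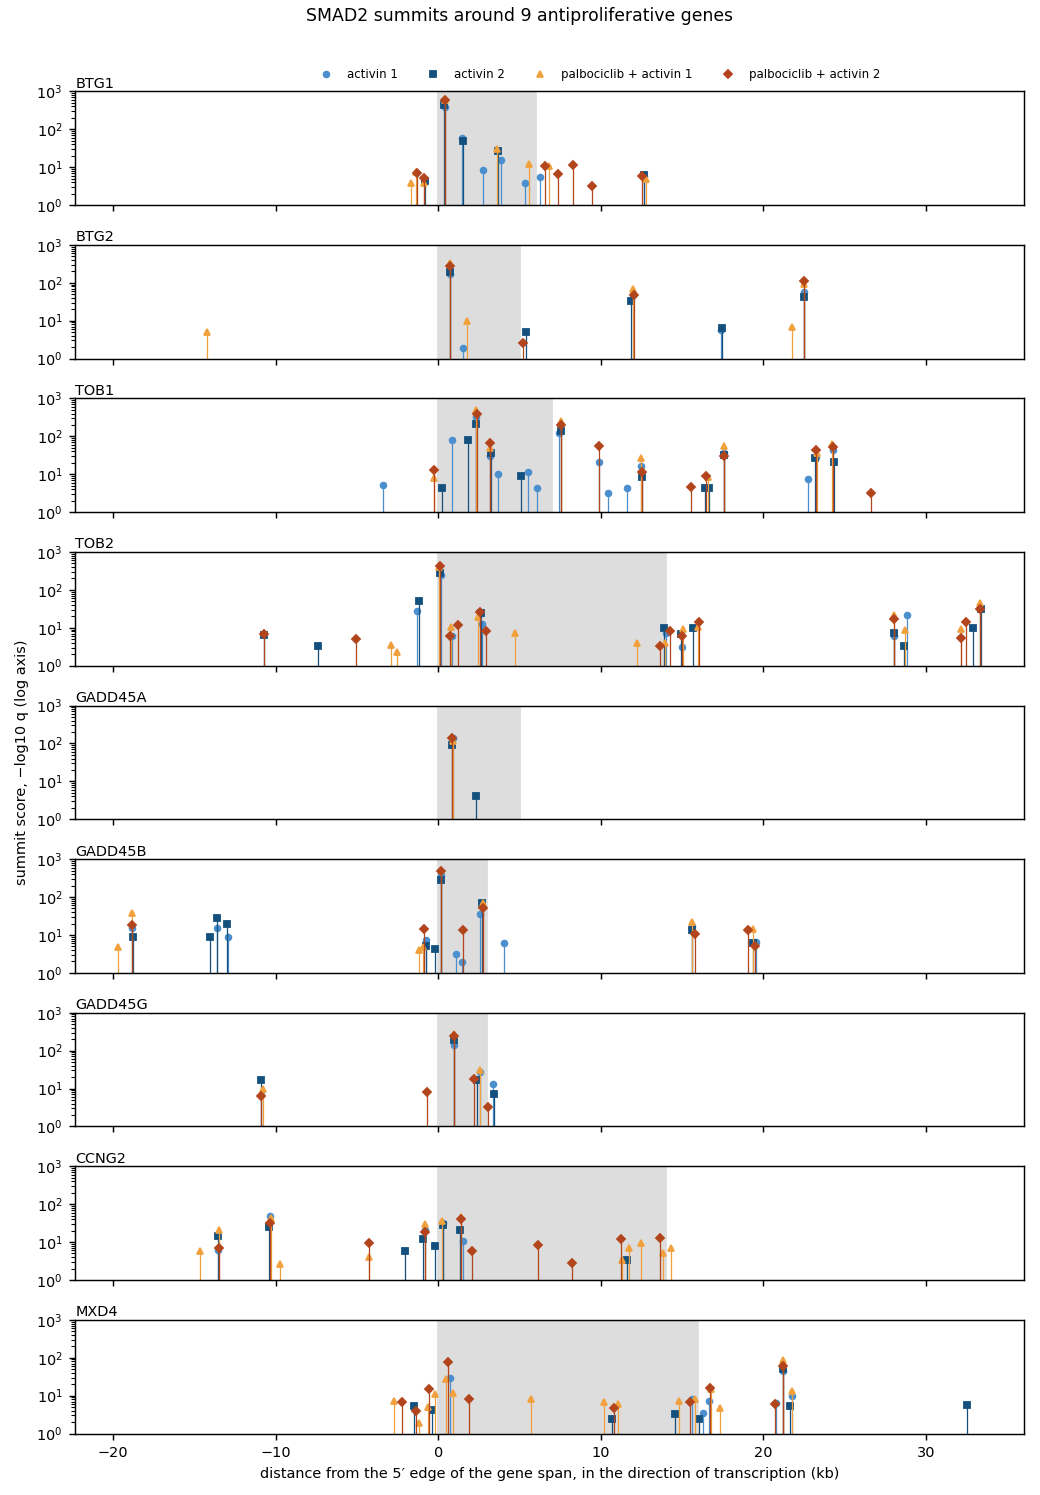
SMAD2 summits of the 4 libraries around the 9 genes. The x axis is the distance from the 5′ edge of the gene span in the direction of transcription (kb), with the span shaded. The y axis is the summit score (read as −log10 q, log axis). The summits of the 4 libraries stack at 1 position near the 5′ edge at BTG1, BTG2, TOB2 and the 3 GADD45 genes, and inside the gene at TOB1, while MXD4 and CCNG2 show no summit above a score of 100.

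The B-cell translocation gene BTG1 carried the strongest SMAD2 region of the 9 loci. It lay at chr12:92539591-92539619, 0.381 to 0.409 kb inside the 5′ edge. It scored 389 and 447 with activin and 596 and 572 with palbociclib and activin. These were ranks 61, 47, 58 and 43, within the first 0.118% of every list. Only 40 of the 23476 regions found in all libraries (0.170%) had a worst rank as good. The gene's other summits were far weaker. The next highest score was 59.4 and 47.7 with activin, both about 1.48 kb inside the edge, and 30.5 and 11.2 with palbociclib and activin, farther inside and past the 3′ end. On GRCh38 the divergent RNA gene BTG1-DT is the next gene beyond the 5′ end of BTG1.

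BTG2, a p53-inducible relative of BTG1, had a region at chr1:203274690-203274724, 0.690 to 0.724 kb inside the edge. Its scores were 174 and 187 with activin and 342 and 284 with palbociclib and activin, at ranks 649, 613, 306 and 393. All 4 lists thus held it within their first 1.26%. A pair of further regions lay beyond the gene's 3′ end and was present in every library. The farther one, at chr1:203296499-203296516 or 22.5 kb from the 5′ edge, scored 57.9 and 43.3 with activin and 92.9 and 110 with palbociclib and activin. The nearer one, at chr1:203285880-203286011, scored 46.9 and 34.0, and 69.4 and 46.7. BTG2 thus had its highest summits within 1 kb of its 5′ edge and lower ones far downstream, and little between them.

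TOB1 encodes a transducer of ERBB2 signals with a BTG domain. At all loci but CCNG2 and MXD4 the strongest region ranked within the first 6.32% of every list. Among these 7 loci, only at TOB1 did it lie deeper than 1 kb from the edge. The region at chr17:48943645-48943670 lay 2.33 to 2.36 kb inside the span. It scored 326 and 209 with activin and 498 and 380 with palbociclib and activin, at ranks 101, 438, 87 and 135. RefSeq gives TOB1 a pair of starts that lie 1624 bases apart on GRCh38, and the antisense gene TOB1-AS1 overlaps the gene. Whichever start the edge stands for, the region lies nearer to the inner start, if the 1624 bases also hold on hg19. Its exact distance from that start was not determined across builds. A second strong region lay just past the 3′ end, at chr17:48938458-48938555, with scores of 120 and 134, then 252 and 195. TOB1 had 7 regions found in all libraries, more than any other of the 9 loci.

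TOB2, the paralogue of TOB1, had its strongest region at chr22:41842858-41842958, 0.042 to 0.142 kb inside the edge as given in whole kb. The scores were 241 and 274 with activin and 412 and 415 with palbociclib and activin, and the ranks 253, 189, 157 and 103. No other TOB2 summit in any list scored above 51.3. Its window held 5 regions found in all libraries, among them 1 at chr22:41809606-41809712, far beyond the 3′ end on the side of the neighbouring gene TEF, with scores between 31.9 and 43.9.

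GADD45B, an early TGF-β response gene in several epithelia, had the strongest region of the GADD45 family. It lay at chr19:2476157-2476167, where the summits of all 4 libraries fell within 10 bp. The scores were 380 and 287 with activin and 522 and 495 with palbociclib and activin. The ranks were 67, 156, 74 and 58, and 89 of the 23476 regions found in all libraries (0.379%) reached as good a worst rank. Its next strongest region lay inside the 3′ part of the span at chr19:2478581-2478770, with scores of 36.5 and 70.3, then 70.9 and 50.4.

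GADD45G had its region at chr9:92219958-92219968, again within 10 bp in all libraries, 0.958 to 0.968 kb inside the edge. It scored 145 and 187 with activin and 278 and 237 with palbociclib and activin, at ranks 1034, 608, 575 and 663. Beyond it the GADD45G window was sparse, with 2 to 4 other summits a library, none above a score of 30.6.

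GADD45A, the p53-responsive member of the family, stood out for how little lay around its start. The region at chr1:68150863-68150899 was the only one in its 45-kb window in 3 of the 4 libraries, and activin replicate 2 added 1 weak summit with a score of 4.05. The region scored 139 and 91.3 with activin and 118 and 139 with palbociclib and activin. The ranks were 1165, 3082, 3981 and 2567, or 2.26% to 6.32% of the lists. GADD45A thus ranked below the other members of its family in every list, most narrowly in activin replicate 1, where GADD45G stood at 1034.

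CCNG2 and MXD4 had only medium or weak summits. The strongest region found in all libraries near CCNG2 lay 10.3 to 10.4 kb upstream, at chr4:78067595-78067697. It scored 49.4 and 24.9 with activin and 43.2 and 32.3 with palbociclib and activin, at ranks 7232, 12440, 11211 and 12976. Within 1 kb of the CCNG2 5′ edge, a region at chr4:78078253-78078287 scored 31.2 and 27.4 with activin. It scored 37.1 in palbociclib and activin replicate 1 and had no summit in replicate 2 of that treatment. Another at chr4:78077037-78077164, upstream of the edge, was in all libraries with scores between 12.2 and 30.1. Another region in all libraries, at chr4:78079327-78079529 inside the gene, scored 10.8 and 21.1 with activin and 45.4 and 41.8 with palbociclib and activin, at ranks 23454, 14028, 10808 and 10868. It held the highest CCNG2 summit of both palbociclib and activin lists. With activin the highest was in the far upstream region in replicate 1 and in the region at chr4:78078253-78078287 in replicate 2.

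The strongest region near MXD4 lay outside the gene, 21.2 kb from its 5′ edge and past its 3′ end, at chr4:2243778-2243798. Its scores were 43.6 and 50.6 with activin and 85.8 and 59.2 with palbociclib and activin, at ranks 8162, 6874, 6112 and 8175. The next gene on that side is POLN on GRCh38, and the distance of the region from POLN was not determined across builds. This region was the only one of the MXD4 window found in all libraries. Near the 5′ edge, summits chained from chr4:2264120 to 2264522 scored 29.6 in activin replicate 1, 27.7 in palbociclib and activin replicate 1 and 79.2 in replicate 2, and activin replicate 2 had none there.

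**Figure D2:**
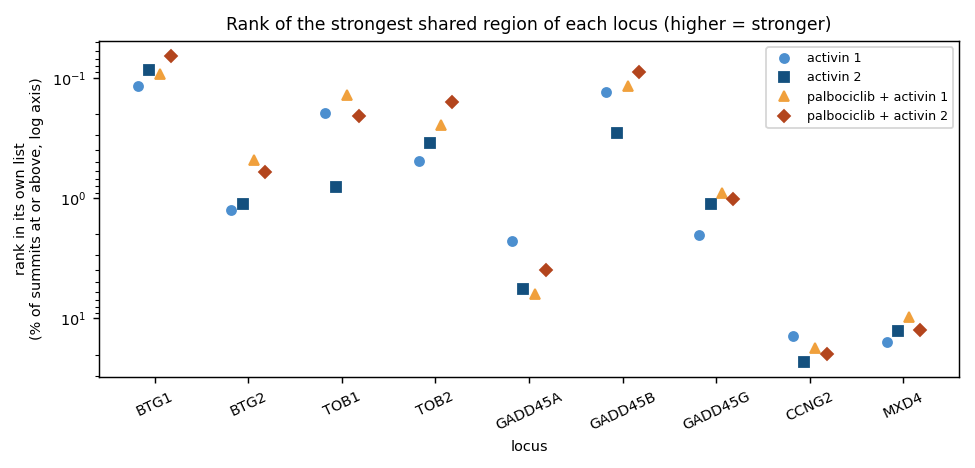
Rank of the strongest region found in all libraries at each locus. The x axis gives the locus and the y axis the percentage of the library's own summits at or above that rank (log axis, inverted so that stronger is higher), with 1 point for each library. BTG1 and GADD45B lie within the first 0.288% of every list, while CCNG2 and MXD4 lie between 9.71% and 22.9%.

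By worst rank the order of the loci was BTG1 (61), GADD45B (156), TOB2 (253), TOB1 (438), BTG2 (649), GADD45G (1034), GADD45A (3981), MXD4 (8175) and CCNG2 (12976). Neighbours in this order had overlapping ranks over the 4 lists, except that GADD45A stood apart from GADD45G before it and from MXD4 after it. BTG1 ranked above the other 8 loci in each of the 4 lists. CCNG2 and MXD4 lay below the other 7 in each list, with CCNG2 ahead of MXD4 in activin replicate 1 and behind it in the other 3 lists. Every list thus placed BTG1 first and this pair last. Summits among the highest 10% of their list numbered 9 and 10 with activin and 10 and 10 with palbociclib and activin, or 13.0% to 15.2% of the summits at the loci.

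The 5′ edge was the densest part of these windows. Within 1 kb on either side of the edge lay 12 and 14 summits with activin and 16 and 14 with palbociclib and activin. The mean per library was 0.778 summits per kb. By the same mean per library, the rest of the spans held 0.281 per kb, the downstream flanks 0.149 and the upstream flanks 0.0673. Of the 19 regions at the edge, 8 were found in all libraries, beside 6 of 44 in the remaining spans, 14 of 49 downstream and 4 of 26 upstream. These 8 regions belonged to 7 loci, all but TOB1 and MXD4. Positions of the edges are known only in whole kb. The edge distance was chosen after the summits were seen, and other genes were not counted in the same way.

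Summits were also more numerous near these genes than in an average stretch of genome. The number per library, averaged over the 4 libraries, was 12.5 at TOB2, 12.3 at TOB1, 10.0 at MXD4, 9.25 at GADD45B, 9 at CCNG2, 7 at BTG1, 5 at BTG2, 4 at GADD45G and 1.25 at GADD45A. The 58858 windows of 50 kb that tile the chromosomes averaged 0.994 summits, and 54.6% of them held none. At least as many summits as at TOB2 were found in 0.822% of these windows, as at BTG2 in 5.09% and as at GADD45A in 22.9%. These counts came from windows of 54, 45 and 45 kb. Scaled to 50 kb, the percentages were 0.994%, 4.08% and 19.8%. Many of those windows hold no gene, and no comparison with other genes was made. Number and strength were not the same thing at these loci: MXD4 had many summits and no strong one, and GADD45G had few summits and a strong one.

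**Figure D3:**
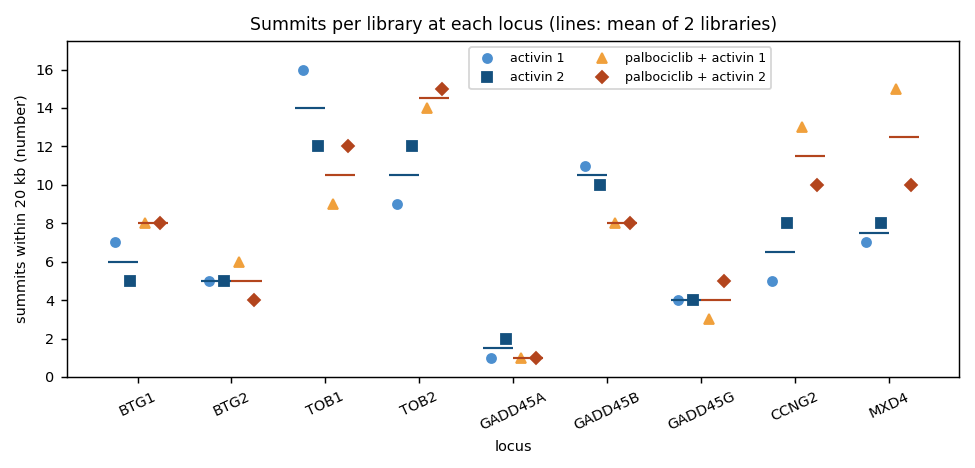
Number of summits within 20 kb of each gene. The x axis gives the locus and the y axis the number of summits, with 1 point for each of the 4 libraries and a line for the mean of 2 libraries. Points of the treatments are separate at BTG1, TOB2, CCNG2 and MXD4 (higher with palbociclib) and at GADD45B (lower), and overlap at the other 4 loci.

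The comparison of treatments asks whether palbociclib alters where SMAD2 is found after activin. Over the 9 loci together the lists held 65 and 66 summits with activin (65.5 ± 0.707, SD, n = 2) and 77 and 73 with palbociclib and activin (75.0 ± 2.83, SD, n = 2). That is 1.15-fold as many, beside 1.21-fold for the whole lists. The groups did not overlap, and the exact two-sided permutation test over 4 libraries gave p = 0.333, the smallest that 2 against 2 allow, so no comparison here can pass 0.05. As a share of each list, the loci held 12.6 (95% exact Clopper-Pearson interval 9.74 to 16.1) and 12.2 (9.41 to 15.5) of every 10000 summits with activin, and 12.2 (9.65 to 15.3) and 11.2 (8.78 to 14.1) with palbociclib and activin. These intervals cover counting error only, the shares overlapped, and the exact permutation p was 0.667. When the lists were trimmed to the 51535 highest summits each, the loci held 65 and 64 summits with activin and 65 and 65 with palbociclib and activin.

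The numbers differed from locus to locus. CCNG2 had 5 and 8 summits with activin and 13 and 10 with palbociclib and activin, a log2 difference of 0.85. MXD4 had 7 and 8, then 15 and 10, a log2 difference of 0.71. No CCNG2 summit scored above 49.4 in any list. At TOB2 the numbers were 9 and 12, then 14 and 15, and at BTG1 7 and 5, then 8 and 8. GADD45B differed in the opposite direction, with 11 and 10 summits with activin and 8 and 8 with palbociclib and activin, a log2 difference of -0.39. In each of these 5 loci the groups were separate and the exact permutation test gave p = 0.333. So 4 of 9 loci were separate and higher and 1 of 9 separate and lower. Within 5 or 10 kb of GADD45B the groups overlapped (log2 difference -0.29, exact permutation p = 1.0), and so they did within 50 kb of MXD4 (0.37, p = 0.667). Over the 26693 windows of 50 kb with any summit, 14.2% were separate and higher and 2.88% separate and lower. Over the 2994 windows with a mean of at least 5 summits, a limit chosen after seeing the data, these shares were 33.2% and 5.85%, so separation is common where summits are many.

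At the remaining 4 loci the groups overlapped. TOB1 had 16 and 12 summits with activin and 9 and 12 with palbociclib and activin. BTG2 had 5 and 5, then 6 and 4, GADD45G had 4 and 4, then 3 and 5, and GADD45A had 1 and 2, then 1 and 1. At equal list lengths CCNG2 (5 and 8, then 10 and 9) and MXD4 (7 and 6, then 13 and 9) stayed separate and higher and GADD45B (11 and 10, then 7 and 8) separate and lower. TOB1 (16 and 12, then 9 and 10) became separate and lower, and BTG1 and TOB2 came to overlap. Trimming removes palbociclib summits up to a score of 4.87 and activin summits only up to 2.90, so it is not neutral for weak summits.

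**Figure D4:**
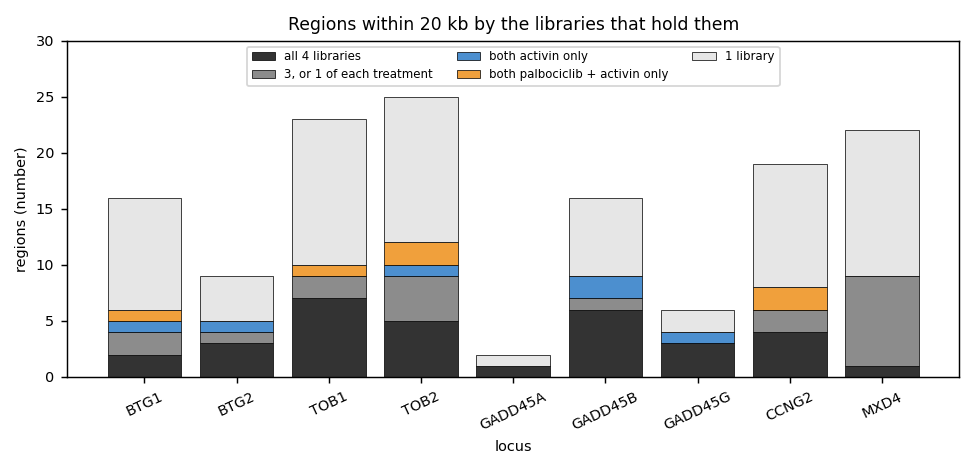
Regions of chained summits within 20 kb of each gene, by the libraries that hold them. The x axis gives the locus and the y axis the number of regions. Regions found in all 4 libraries number 32 of 138, and those of 1 treatment alone number 6 for each treatment.

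Most regions at these loci were either shared by all libraries or seen once. Of the 138 regions, 32 (23.2%) were in all 4 libraries, beside 20.4% of the regions of the genome, and 74 (53.6%) were in 1 library, beside 50.8%. Regions in both palbociclib and activin libraries and in neither activin library numbered 6 (4.35%), beside 5.29% in the genome. Those in both activin libraries alone also numbered 6 (4.35%), beside 2.22% in the genome. The first share lay near its background, and the second rests on 6 regions, of which 3 were within 10 kb of a gene.

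The activin-only regions lay at BTG1, BTG2, TOB2, GADD45B and GADD45G. The highest was at chr12:92538511-92538519 inside BTG1, with scores of 59.4 and 47.7, and the nearest summit of the other treatment, that of the leading BTG1 region, lay 1081 bp away. The TOB2 region at chr22:41844163-41844283 scored 28.1 and 51.3 and lay 1205 bp from the nearest palbociclib and activin summit. Both thus flank the leading region of their gene. Upstream of GADD45B a pair of activin-only regions at chr19:2462397-2462404 (scores 14.8 and 27.4) and chr19:2463022-2463049 (8.65 and 19.6) stood alone, with the nearest palbociclib and activin summit 5216 and 5841 bp away. Over 5 kb of isolation was found for 12.8% of all activin-only regions. The next annotated gene on that side of GADD45B on GRCh38 is the RNA gene LINC01775.

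The palbociclib and activin-only regions lay at BTG1, TOB1, TOB2 (2 of them) and CCNG2 (2 of them). They were weak, with scores between 3.44 and 14.5. The highest, at chr22:41826995-41827057 beyond the 3′ end of TOB2, scored 10.7 and 14.5 and lay 276 bp from an activin summit. The TOB1 region at chr17:48946234-48946278 sat just outside the 5′ edge and scored 7.94 and 13.3. The CCNG2 regions scored 4.04 and 9.24 at chr4:78073740-78073742, upstream, and 3.44 and 12.3 at chr4:78089239-78089292, inside the gene. None of the 6 was over 5 kb from an activin summit, beside 26.7% of all such regions. MXD4 had no region held by both palbociclib and activin libraries alone. Of its 22 regions, 13 were in 1 library, 8 in 3 libraries or in 1 of each treatment, and 1 in all.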

How the data were processed

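SMAD2 ChIP-seq lists of 4 T47D libraries were analysed, each holding the peak summits of 1 library. The authors used hg19, and the submitters' processing notes name MACS2 2.0.9, Bowtie 1.1.0 and Picard. For read filters and parameters, the sources used here state nothing. The score column as deposited was read as the −log10 q value of the authors' peak caller, because the lowest score, 1.31, lies just above 1.30, the −log10 of 0.05.

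Positions were made 1-based and kept on chromosomes 1 to 22 and X. Regions, group-only classes and ranks were computed over the whole lists with Python 3.11.15, numpy 2.4.6, pandas 2.3.3 and scipy 1.17.1, with plots by matplotlib 3.10.9. The region code was tested on simulated data. Gene orientation came from the RefSeq promoter table (GRCh38.p14), for GADD45A from general knowledge. Counts were compared by an exact permutation test over 4 libraries. At each locus the strongest region found in all libraries was named. Regions of 1 treatment alone were all counted, and positions are given for only some of them. Other genes of the same pathways, having no hg19 position in the tables, were not analysed here. The members and lists were chosen with earlier results of these data known. Alternatives covered flank, score, list length, gap, a replicate block and each library left out.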

Additional observations from a re-analysis of the deposited data

How the results depend on the processing

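The log2 difference in summits near the 9 loci (0.19) kept its direction in the 11 alternatives run, with 0.16 to 0.23 when each library was left out and 0.011 at equal list lengths, where it nearly vanished. The share of each list (log2 difference -0.082) turned to 0.043 within 5 kb, 0.0135 within 10 kb and 0.011 at equal list lengths, and was -0.15 to -0.019 without each library. The cause was not tested. Regions in all libraries (32) fell to 16 within 5 kb and 20 within 10 kb, as fewer bases were searched, and were 32 to 37 without each library. With gaps of 100, 500 and 1000 bp they numbered 22, 34 and 31. Palbociclib and activin-only regions (6) were 3 and 2 with gaps of 500 and 1000 bp, and 9 to 33 without each library: 10 without activin replicate 2, 27 without palbociclib and activin replicate 1 and 33 without replicate 2. Activin-only regions (6) were 3 within 5 kb and 3 within 10 kb, and 6 to 22 without each library: 20 and 22 without activin replicates 1 and 2, and 11 without palbociclib and activin replicate 1. With 1 library left in a group, its summits alone define the group's regions. CCNG2 and MXD4 stayed higher (0.51 to 1.19 and 0.37 to 1.11) and GADD45B lower (-0.51 to -0.29) in direction under their 11 alternatives each, as did BTG1 and TOB2 higher and TOB1 lower. Separation of the groups was lost within 5 and 10 kb for GADD45B, within 50 kb for MXD4, and with scores of at least 5 or equal list lengths for BTG1 and TOB2. For TOB1 it appeared within 5 and 10 kb and at equal list lengths. CCNG2 stayed separate for each flank, score and list length tried. BTG2 (-0.029) turned to 0.21 within 50 kb, 0.13 and 0.085 with scores of at least 2 and 5, and ranged from -0.32 to 0.26 without each library, the latter without palbociclib and activin replicate 2. GADD45G (-0.047) ranged from -0.42 to 0.32 without each library, the latter without palbociclib and activin replicate 1. The strongest region of each locus was the same with gaps of 100, 500 and 1000 bp. Within 3 kb of the 5′ edge, an alternative chosen after seeing the data, 8 loci in place of 7 had a region in all libraries. With the replicate block the log2 differences were 0.19 and -0.082 as without it; the labels share only a number, and same-numbered libraries hardly deviated together (correlation 0.0637 over 26693 windows). Unknown read depth limits every count.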
